A study of Mus musculus with 11 samples.

Results

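The 10 lines described here are those at ranks 11 to 20 by total reads in a pool of barcoded mouse cell lines of pancreatic ductal adenocarcinoma (PDAC), recovered from lungs. The first 4 bases of each 20-base barcode served to identify the line, and identifiers were ranked by their reads summed over all libraries. The members are every barcode that carries the identifier TTCC (962683 reads), GGTT (873263), ACGA (791888), CATG (631632), GTGA (616244), ATCG (534345), GTAC (513043), ACTG (355598), CGAT (272217) or CGTA (263890). They make up 26480 of 135360 listings (a listing is a barcode in a library), 20921 distinct barcodes and 4.89% of all reads. Total reads chose the lines and are given only as a description. The comparison of reads between the groups, further below, uses the same values. Just above rank 11 stood ACCT with 1215349 reads, and just below rank 20 AAGG with 226906. The whole series holds 243 such identifiers. Of these, 38 had at least 5 colonies (defined below) in a library, and no cell line name accompanied the barcodes.

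The mice were 129/Bl6 F1 hosts, syngeneic to the tumour cells. In the vehicle group (6 lungs) they had been given vehicle before the cells, and in the 6-OHDA group (5 lungs) 6-hydroxydopamine, written 6OHDA in the labels. Every mouse received the pool through a vein, and lungs were taken 3 weeks later. The labels give no age, no sex and no statement that each library is a separate animal, and p-values therefore reflect only how far these libraries spread, which may be technical in part. The study asks, by its title, how sympathetic neurons bear on metastatic seeding of the lung by pancreatic cancer.

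Sympathetic nerve fibres reach the airways and vessels of the lung and release noradrenaline together with neuropeptide Y. The toxin 6-OHDA enters their endings through the noradrenaline transporter and destroys them. After injection into a vein, tumour cells lodge in lung capillaries, and a few leave the vessel, survive and divide. A heritable DNA barcode lets the descendants of a tagged cell be counted together: the number of barcodes reflects how many tagged cells founded growth, and the reads of a barcode how large its progeny became. A tagged cell that divides in culture leaves copies of its barcode, and these can enter a single mouse or several mice.

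Every listing among the members followed 1 layout, the identifier and then 12 variable bases with a fixed G at positions 8, 12, 16 and 20. Read numbers of single barcodes are given as deposited. The barcodes that carry the results are printed 5′ to 3′ with the identifier in capitals. The first set shows the barcode with the most reads in each line, because in some lines a single barcode decided the line's share of a lung.
TTCC, most reads: TTCCccggctcggatggatg
GGTT, most reads: GGTTcgtgttcgaccgatgg
ACGA, most reads: ACGAatcgaggggagggccg
CATG, most reads: CATGagtgtggggtaggttg
GTGA, most reads: GTGAcctgtaagactgttgg
ATCG, most reads: ATCGgcggtctgttcgaggg
GTAC, most reads: GTACtgcgcctgacggggtg
ACTG, most reads: ACTGttggcttggatgcttg
CGAT, most reads: CGATcacgcgtgtatgcagg
CGTA, most reads: CGTAtcggctggcaggttag

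The top barcode of ATCG had 362023 reads in vehicle sample 2, which is 98.0% of the line's reads in that library and 4.07% of the whole library. It had 4 reads in vehicle sample 1 and was listed in no other library. That of GTGA had 60380 reads in 6-OHDA sample 3, 55.4% of its line there, and 1 read in vehicle sample 3. The top barcode of TTCC (20032 reads, 6-OHDA sample 3), that of CATG (14675, vehicle sample 3), that of GTAC (12488, vehicle sample 5) and that of ACTG (6634, vehicle sample 1) were each listed in a single library. GGTT was different: its top barcode was a colony in all 11 libraries, with 302 reads in the lowest (vehicle sample 5) and 13023 in the highest (vehicle sample 4). Those of ACGA, CGAT and CGTA were colonies in 2, 3 and 5 libraries.

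The second set shows, for the other lines, the barcode that was a colony in the most libraries. GGTT is left out because the barcode above is also its most widespread.
TTCC, most libraries: TTCCgccgcaagcaaggctg
ACGA, most libraries: ACGAtcagcttggtgggctg
CATG, most libraries: CATGtgagattgggagattg
GTGA, most libraries: GTGAttggttagggtgtgcg
ATCG, most libraries: ATCGaatgtctgtaagcttg
GTAC, most libraries: GTACcatgtccgagcgagtg
ACTG, most libraries: ACTGttgggtggatggggtg
CGAT, most libraries: CGATggagatagcatgactg
CGTA, most libraries: CGTAgttgaatgttggtgag

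The ATCG barcode of this set was a colony in 10 of 11 libraries and ranged from 3.26 to 1243 RPM (reads scaled to a library of 1000000, after thinning to equal depth). The TTCC barcode was a colony in 9, that of GTGA in 8, those of CGAT and CGTA in 7, that of CATG in 6 and that of ACGA in 5. The widest reach in GTAC was 4 libraries and in ACTG 3. Being found in many lungs did not fix the size: the ACGA barcode had 5674 reads in vehicle sample 1 and 96 in 6-OHDA sample 3, and the TTCC barcode 600 in vehicle sample 6 and 29 in vehicle sample 3.

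The last set holds the remaining barcodes that took at least 1 in 3 of their line's reads in a library with 5 or more colonies of that line.
ATCG, vehicle sample 1: ATCGaccgtcggactgtgag
ATCG, vehicle sample 6: ATCGggcggagggaagcatg
GTAC, vehicle sample 1: GTACaaggcaagagggtcag
CGAT, vehicle sample 5: CGATaacgattggctgacag

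They held 42.2% (3321 reads) and 70.0% (1119 reads) of ATCG, 62.3% of GTAC (6964 reads) and 36.6% of CGAT (337 reads) in those libraries. Including the first 2 sets, a line passed this share in 9 cases, of which 7 were in vehicle libraries and 2 in 6-OHDA libraries. The 7 vehicle cases all fell in samples 1, 2, 5 and 6, where the lines had few colonies.

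A colony is a barcode with at least 10 reads after every library was thinned at random to 6436469 reads, so the smallest colony is 1.55 RPM. The 10 lines held 16733 of 68409 colonies, 24.5%, with a pooled median size of 7.77 RPM and a 90th percentile of 62.1 RPM. The 10 lines with more reads had medians and 90th percentiles of 39.0 and 519.9 RPM over 46565 colonies. Since total reads are the product of colony number and mean size, ranking by reads constrains that product, and the gap in size between these sets is in part fixed by the choice. The same holds within the 10 lines: in a limited range of reads, a line with more colonies has a smaller mean size. By total colonies ACGA, at rank 13 by reads, was at rank 5 of all identifiers, and TTCC at rank 7. GGTT, at rank 12 by reads, was at rank 13, and ATCG, at rank 16 by reads, at rank 22. These differences between lines are described without a test, because the lines were chosen on reads of the same libraries. No library of the pool before injection is among the samples, so the share of each line in the injected cells is unknown. Colony numbers of a line are therefore counts per library and not a rate per injected cell.

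ACGA seeded the most colonies of the 10, and they were small. Colonies of ACGA numbered 54 to 544 with a median of 108 in vehicle, and 547, 335, 358, 404 and 530 in 6-OHDA samples 1 to 5. As in the other 9 lines, vehicle samples 1, 2, 5 and 6 lay below every 6-OHDA library, and vehicle samples 3 and 4 within the range of the 6-OHDA libraries. It had the most colonies of the 10 lines in 10 of 11 libraries, 1 of these a tie with TTCC, and the second most in the other. Its median colony measured 5.75 to 23.2 with a median of 12.5 RPM over vehicle libraries, and 4.97, 5.75, 4.82, 6.84 and 4.74 RPM over 6-OHDA libraries. Its size was among the 3 smallest of the 10 lines in 8 of 11 libraries. Only 18.9% of its colonies were larger than the median colony of their own library, and 12 of 3564 exceeded 500 RPM. Between 5 and 62 barcodes together held 50% of its reads, so no single barcode carried the line, and its largest barcode held at most 17.2% of its reads in a library.

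TTCC came second in colonies, with sizes in the middle of the 10 lines. Colonies of TTCC numbered 48 to 401 with a median of 93.5 in vehicle, and 504, 249, 332, 250 and 492 in 6-OHDA samples 1 to 5. It had at least as many as every other line of the 10 except ACGA in all 11 libraries. Its median colony measured 8.70 to 14.0 with a median of 9.63 RPM over vehicle libraries, and 7.15, 9.32, 6.37, 9.94 and 6.60 RPM over 6-OHDA libraries. The size ranked 4 to 10 among the lines, with a median rank of 6, and 29.8% of colonies exceeded their library's median. In vehicle these medians spanned the narrowest range of the 10 lines. Its upper end was longer than that of ACGA: the pooled 90th percentile was 68.7 against 37.2 RPM, and its largest colony, in 6-OHDA sample 3, reached 1773 RPM. In vehicle samples 1, 2, 5 and 6 the line held 48 to 97 colonies and 0.237 to 0.545% of reads. Vehicle samples 3 and 4, with 0.872 and 1.004% of reads, lay within the 6-OHDA range of 0.765 to 1.16%.

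GTGA had fewer colonies than both, of a size near that of TTCC. The TTCC median was the larger in 6 of 11 libraries, with a median factor of 1.04 over GTGA. Colonies of GTGA numbered 22 to 253 with a median of 67 in vehicle, and 394, 153, 212, 191 and 373 in 6-OHDA samples 1 to 5. Its median colony measured 6.53 to 37.4 with a median of 12.5 RPM over vehicle libraries, and 5.28, 7.30, 6.14, 11.5 and 4.82 RPM over 6-OHDA libraries. Vehicle sample 1, at 37.4 RPM from 22 colonies, stood above the other vehicle libraries, which lay between 6.53 and 13.7 RPM. The median was 7.30 RPM over all libraries and 23.9% of colonies exceeded their library's median. In 6-OHDA sample 3 a single barcode made up more than all its other reads. The line's share of that library was 0.960%, against 0.274 to 0.795% in the other 6-OHDA libraries.

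CATG and GGTT had larger colonies, and their colonies per library were a median 0.882 and 0.902 times those of GTGA. Colonies of CATG numbered 22 to 256 with a median of 63.5 in vehicle, and 425, 135, 242, 111 and 299 in 6-OHDA samples 1 to 5. Its median colony measured 10.1 to 34.5 with a median of 23.1 RPM over vehicle libraries, and 9.01, 12.3, 10.6, 10.1 and 6.68 RPM over 6-OHDA libraries. Its median was larger than that of ACGA and of TTCC in all 11 libraries, by a median factor of 1.74 and 1.32. Colonies of GGTT numbered 33 to 224 with a median of 62.5 in vehicle, and 251, 138, 165, 135 and 253 in 6-OHDA samples 1 to 5. The GGTT median colony measured 11.7 to 49.4 with a median of 24.2 RPM over vehicle libraries, and 10.4, 13.5, 10.9, 11.5 and 7.92 RPM over 6-OHDA libraries. GGTT exceeded TTCC in median size in all 11 libraries (median factor 1.48) and was among the 3 largest of the 10 lines in 10 of 11. It also had the most colonies above 500 RPM, 27 of 1589 (1.70%), where the other 9 lines had from 1 to 12. Its 90th percentile in vehicle was 111 to 562 with a median of 364 RPM, and the largest colony reached 3189 RPM in vehicle sample 5. Pooled over libraries, GGTT colonies had a median of 14.6 RPM where the barcode was a colony in several libraries. Where it was a colony in a single library, the GGTT median was 8.62 RPM. For CATG these values were 8.23 and 11.3 RPM. Whether several founder cells with the same barcode add to the size of a colony was not tested.

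GTAC and ACTG seeded few colonies with comparatively large medians. Colonies of GTAC numbered 5 to 175 with a median of 25.5 in vehicle, and 252, 97, 140, 101 and 197 in 6-OHDA samples 1 to 5. The GTAC median colony measured 11.96 to 103 with a median of 17.7 RPM over vehicle libraries, and 9.01, 11.2, 10.6, 28.9 and 9.32 RPM over 6-OHDA libraries. Its highest median rests on the 5 colonies of vehicle sample 1. GTAC ranked first in median size among the 10 lines in 5 of 11 libraries and never below the fourth place, and 38.4% of its colonies exceeded their library's median, the highest share of the 10. It had nearly the same total of colonies as CGAT, 1199 and 1197. Colonies of ACTG numbered 11 to 145 with a median of 57.5 in vehicle, and 218, 79, 87, 87 and 183 in 6-OHDA samples 1 to 5. The ACTG median colony measured 10.3 to 51.9 with a median of 14.6 RPM over vehicle libraries, and 6.76, 13.8, 6.84, 11.7 and 6.53 RPM over 6-OHDA libraries. Its median was larger than that of GTGA in all 11 libraries (median factor 1.35). Vehicle sample 5 held only 11 ACTG colonies and 0.0266% of its reads in this line, far under the 0.315 to 0.425% of the other vehicle libraries.

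CGAT and CGTA combined few colonies with medians under those of GTAC and ACTG in most libraries. The CGAT median was larger than that of GTGA in 7 of 11 libraries (median factor 1.07) and than that of CGTA in 7 (median factor 1.21). The TTCC median was larger than that of CGAT in 7 of 11 libraries, by a median factor of only 1.04, and than that of CGTA in 7, by 1.24. Colonies of CGAT numbered 6 to 168 with a median of 29 in vehicle, and 241, 92, 166, 118 and 173 in 6-OHDA samples 1 to 5. The CGAT median colony measured 7.30 to 13.7 with a median of 8.93 RPM over vehicle libraries, and 6.21, 11.2, 7.30, 9.71 and 6.37 RPM over 6-OHDA libraries. After TTCC, the CGAT medians were the most even of the 10 lines across vehicle libraries. Only 1 of its 1197 colonies passed 500 RPM, the barcode of 1031 RPM in vehicle sample 2 printed above, and it held 51.3% of the line there. Colonies of CGTA numbered 27 to 133 with a median of 45.5 in vehicle, and 130, 82, 106, 120 and 138 in 6-OHDA samples 1 to 5. The CGTA median colony measured 5.59 to 37.9 with a median of 12.9 RPM over vehicle libraries, and 5.13, 5.90, 4.97, 5.36 and 5.52 RPM over 6-OHDA libraries. In the 6-OHDA libraries the CGTA medians lay within 1 RPM of each other, and 20.3% of colonies there exceeded their library's median, against 24.6% in vehicle.

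ATCG seeded the fewest colonies and owed its rank to a single barcode. Colonies of ATCG numbered 1 to 60 with a median of 13.5 in vehicle, and 91, 44, 53, 39 and 50 in 6-OHDA samples 1 to 5. It had the fewest of the 10 lines in 10 of 11 libraries. In vehicle libraries with 5 or more colonies its median sizes were 26.2, 13.4, 8.31, 5.44 and 5.28 RPM (samples 1, 2, 3, 4 and 6), and in 6-OHDA libraries 6.37, 6.06, 7.61, 5.28 and 4.43 RPM. Without its top barcode the line has 172318 reads and rank 22, outside the limits, and the same rank holds without vehicle sample 2. At most 6 barcodes held 50% of its reads in any library, and in vehicle samples 2, 5 and 6 it was 1. The share of its largest barcode ran from 13.4% in 6-OHDA sample 5 to 98.0%. No other left-out library moved a line across the limits except vehicle sample 5, without which TTCC rises to rank 10.

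Recurrence between lungs separated the lines in another order. A colony was called recurring when its barcode was a colony in at least 1 other library. Over the 10 lines 5426 of 16733 colonies recurred (32.4%), against 57.9% over the 10 lines with more reads and 49.3% over all lines. Of 13481 distinct colony barcodes 2174 were shared (16.1%), against 32.9% over the 10 lines with more reads and 26.2% over all lines. GGTT recurred most, with 67.9% of its 1589 colonies drawn from only 855 distinct barcodes, of which 93 were found in 4 or more lungs. In single libraries its recurring share ran from 63.6 to 78.8%. ATCG followed at 58.7% of 429 colonies, then CGTA at 40.2% and GTGA at 36.8%. TTCC (29.3%), CGAT (28.7%), CATG (28.6%) and ACGA (26.7%) lay close together, although ACGA had 3564 colonies and CGAT 1197. With a minimum of 3 or 30 reads, without thinning or with any listing counted, settings chosen after seeing the data, GGTT and ATCG stayed the highest and GTAC and ACTG the lowest.

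ACTG and GTAC had the lowest recurring shares, 13.9 and 13.3% of colonies. The ranges over libraries were 9.29 to 25.3% for ACTG and 0 to 17.6% for GTAC, both under every library of GGTT and ATCG. GTAC and CGAT had almost equal totals of colonies, and 13.3 and 28.7% of them recurred. Per 10000 pairs of colonies from different vehicle libraries, GGTT shared 16.1 barcodes, ATCG 58.7 and GTAC 1.08, and between a vehicle and a 6-OHDA library 14.4, 49.9 and 1.54. Within the 6-OHDA group the values were 13.6, 41.2 and 1.59, so these lines kept their order within and between the groups. Low rates per pair were not particular to the lines with low shares: ACGA, with 3564 colonies against 1199 and 1085 in GTAC and ACTG, shared 1.32 within vehicle, 1.28 between and 1.07 within 6-OHDA, and ACTG 1.98, 1.31 and 1.78. These overlaps are mutual between libraries and are given without a test.

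Shared barcodes were not of like size in the lungs that shared them. The largest of a recurring barcode's colonies exceeded its smallest by a median factor of 4.14 over the 2174 barcodes, and 544 of them stayed within a factor of 2. For GGTT the median factor was 6.99 and for CGAT 3.16, but GGTT barcodes were found in more lungs, which widens a range. Within single libraries, recurring colonies had a larger median than those seen once in 11 of 11 libraries for CGTA and in 10 of 11 for GGTT and ACGA, by a median factor of 1.55, 1.73 and 1.52. For GTGA it was 9 of 11, for TTCC 8 of 11, for CGAT 7 of 8 and for ATCG 4 of 7. CATG ran the other way, with smaller recurring colonies in 10 of 11 libraries and a median factor of 0.652. GTAC (smaller in 5 of 7) and ACTG (smaller in 6 of 10) showed no one direction, and libraries with fewer than 5 colonies of either kind were left out, a rule set after seeing the data. Of the shared barcodes of the 10 lines 61.8% were found in both groups, against 65.3% of those of all lines, and single lines ran from 45.9% (ACTG) to 73.4% (ATCG). The 10 lines had 6171 colonies in vehicle and 10562 in 6-OHDA, which sets how many barcodes can be shared within each group.

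All 10 lines had more colonies per library in the 6-OHDA group than in vehicle, and none passed the test. TTCC averaged 166.5 ± 144 colonies in vehicle (SD, n = 6) and 365 ± 126 in the 6-OHDA group (SD, n = 5), a log2 change (6-OHDA over vehicle) of 1.13 with an SE of 0.55. GTGA averaged 112 ± 102 and 265 ± 111 (log2 1.24, SE 0.59), the largest change of the 10. For CGTA, the smallest, the means were 67.7 ± 47.9 and 115 ± 22.1 (log2 0.77, SE 0.60). The other 7 lay between 0.80 and 1.22, with GGTT lowest and CGAT highest. In every line each of the 5 6-OHDA libraries exceeded the mean of the vehicle libraries, and the groups overlapped through vehicle samples 3 and 4.

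By edgeR's quasi-likelihood test, adjusted by Benjamini-Hochberg over 38 identifiers, the adjusted p-values of the 10 lines ran from 0.187 to 0.250. At an adjusted p of 0.05 the share called was 0% of the 38, and 94.7% had a higher number in 6-OHDA, so 10 of 10 higher is close to the background. At an unadjusted p of 0.05 edgeR gave 2 of the 10 (GTGA and TTCC, both higher), beside 15.8% of the 38 in either direction and 13.2% higher. At that level the exact permutation gave 3 of the 10 (CGAT, also GTGA and TTCC) beside 34.2% of the 38, and DESeq2 none of the 10 beside 10.5%. The median log2 change was 1.13 over the 10 and 1.11 over the 38. With TMM scaling (the trimmed mean of M-values, which sets each library relative to its other lines) the median over the 38 was 0.05, and 7 of the 10 were higher and 3 lower, GGTT, ACTG and CGTA, with values from -0.35 to 0.46 and none called. Without vehicle sample 4, edgeR called 4 of the 10 as higher, TTCC (log2 1.61), GTGA (log2 1.66), CGAT (log2 1.69) and GTAC (log2 1.73), with adjusted p-values of at most 0.0437, beside 18.9% of 37 identifiers called higher. Of the vehicle libraries, samples 3 and 4 had the most reads, 15665492 and 13410390, against 6436469 to 9970983 in the others. They held 7978 and 8304 colonies over all lines, against 1965 to 3368 in the others. The 6-OHDA samples 1 to 5 had 12814698, 7386328, 11350748, 9560734 and 15427139 reads. Their colonies over all lines numbered 11480, 6345, 8114, 5556 and 10346. The part of depth in these colony numbers, beyond the thinning, was not tested.

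The median colony was smaller in the 6-OHDA group in all 10 lines, and 4 passed the test. CGTA measured 16.2 ± 11.6 RPM in vehicle (SD, n = 6) and 5.38 ± 0.362 RPM in 6-OHDA (SD, n = 5), log2 -1.32, SE 0.41, limma adjusted p = 0.0376. ACGA measured 13.7 ± 7.07 and 5.42 ± 0.886 RPM (log2 -1.17, SE 0.36), GGTT 25.2 ± 13.5 and 10.8 ± 2.02 RPM (log2 -1.07, SE 0.35), and CATG 22.3 ± 10.1 and 9.74 ± 2.08 RPM (log2 -1.07, SE 0.36), with the same adjusted p of 0.0376 in limma for each. For CGTA, ACGA and GGTT 5 of 6 vehicle libraries lay above every 6-OHDA library, with vehicle sample 4 the exception, and for CATG 4 of 6.

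The other 6 did not pass. ACTG had a log2 difference of -1.16 (SE 0.46, limma adjusted p = 0.0631), GTAC -1.06 (SE 0.58), GTGA -0.89 (SE 0.43), ATCG -0.72 (SE 0.43, over 5 vehicle libraries), TTCC -0.43 (SE 0.22) and CGAT -0.22 (SE 0.25), with adjusted p-values up to 0.435. Over all 30 identifiers tested 36.7% were called, all of them lower, and 93.3% had a lower value, so 4 of 10 called is near the background. The median difference was -1.07 over the 10 and over the 30. Measured against the median colony of the same library, which was 42.5 to 76.1 RPM in vehicle samples 1, 2, 5 and 6, 21.1 and 20.04 RPM in vehicle samples 3 and 4, and 14.4 to 23.3 RPM in 6-OHDA, no line was called. On that scale 7 of the 10 had values above 0, of which CGAT had the largest (log2 0.91, SE 0.29, limma adjusted p = 0.0532), followed by TTCC (log2 0.71, SE 0.28, limma adjusted p = 0.114). On a scale with a fixed total the mean size over all colonies of a library is tied to their number, so number and size are not independent. The part of this in the medians of single lines was not tested. All 4 calls were lost when any of vehicle samples 1, 2, 5 and 6 or 6-OHDA samples 1, 2, 3 and 5 was left out, without thinning, with the mean in place of the median and by exact permutation (lowest adjusted p = 0.0649). Without vehicle sample 3, vehicle sample 4 or 6-OHDA sample 4, the count was 5, 6 and 4 of 10, beside 48.3, 58.6 and 43.3% of all identifiers called lower. A minimum of 3 reads gave 5 of 10 beside 41.9%, and at least 20 colonies per library 5 of the 9 testable lines beside 76.2%, in both cases with ACTG added.

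For reads edgeR called none of the 10, and the split of directions moved with the scaling. The lines were chosen on these same reads, summed over both groups. The tests of reads therefore give no support independent of that choice. After TMM scaling, which centres the changes, 5 of the 10 lines had values above 0 and 5 below in the 6-OHDA group, beside 53.5% of all identifiers above 0. Without it 6 of 10 were above 0 (65.3% of all), and 8 of 10 by the mean log2 share of the permutation test (69.3% of all). With TMM scaling edgeR called none at an adjusted p of 0.05, with 0 percent called among 101 identifiers. At an unadjusted p of 0.05 there were 2 of the 10, both lower, beside 32.7% of all identifiers in either direction, 14.9% lower and 17.8% higher. CGTA held 0.256 ± 0.0789% of reads in vehicle (SD, n = 6) and 0.181 ± 0.0684% in 6-OHDA (SD, n = 5), and its log2 change was -1.01 with an SE of 0.33 (edgeR adjusted p = 0.0732). GGTT held 0.846 ± 0.222% and 0.610 ± 0.120%, with a log2 change of -0.89 and an SE of 0.32 (edgeR adjusted p = 0.0840). For GGTT 5 of 6 vehicle libraries lay above every 6-OHDA library, and vehicle sample 1 (0.437%) lay below the lowest 6-OHDA library (0.445%). DESeq2 called both lines and ACGA as lower (log2 -1.16, -1.06 and -0.55, adjusted p = 4.67e-05, 0.0295 and 0.0438), with 25 calls in all, 8 higher and 17 lower (16.8% of the 101). Without vehicle sample 4 edgeR called CGTA (log2 -1.03), 1 of the 10 beside 8.82% of 102 identifiers called lower.

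Without TMM scaling, on the plain share of reads, CGTA and GGTT had values of -0.50 and -0.47, ACGA of 0.01, and no line of the 10 was called although 9 of the 101 identifiers were, all higher. The median log2 change over the 101 was 0.17 with TMM scaling and 0.62 without. GTGA (log2 0.90, SE 0.41, edgeR adjusted p = 0.148) and TTCC (0.75, SE 0.37, edgeR adjusted p = 0.177) had values above 0 on that scale, and TTCC held 0.578 ± 0.299% in vehicle and 0.970 ± 0.170% in 6-OHDA. ATCG had the widest value, -2.76 with an SE of 1.496 (edgeR adjusted p = 0.198). It turned to 0.47 without vehicle sample 2 and to 0.42 when its top barcode and that of GTGA were left out. Without vehicle sample 2 the line was at rank 22 by reads, so its value follows in part from the choice of lines. CATG was level at 0.01 (SE 0.42). For ACTG (log2 -0.53, SE 0.55), GTAC (log2 0.17, SE 0.44) and CGAT (log2 0.54, SE 0.62) the errors exceeded the change.

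Reads of more abundant lines could enter a rarer one through errors in the identifier. Each of the 10 identifiers differed by at least 2 bases from every other of the 20 leading identifiers. Of the 16733 colonies, 2 had the same last 16 bases as a barcode of another line with at least 10 times as many reads in the same library. Merging barcodes 1 base apart within a line left the number of colonies of each line unchanged. That step joins no barcodes of different identifiers, so it cannot show errors in the identifier.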

How the data were processed

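Genomic DNA of lungs was extracted after a benchmark spike-in cell line had been added, and the U6-CLID-rBC-sgRNA cassette was amplified in 27 cycles from 32 µg, per the labels' protocols. The authors deposited read counts per barcode cluster, 1 table per library, per the file headers. The clustering tool is not given in the sources used here. The spike-in was not identified among the barcodes, and sizes are relative to a library and not in cells.

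The 4 listings with an undetermined base were dropped. Libraries held 6436469 to 15665492 reads and were thinned without replacement (seed 1) to the smallest total. A minimum of 10 thinned reads defined a colony. Reads carry no molecular identifiers and are not independent molecules. Colony numbers per identifier (at least 5 colonies in 1 or more libraries, equal library sizes) and reads per identifier (at least 10 reads in most libraries of either group, TMM scaling) were tested with edgeR 4.0.16. With limma 3.58.1 the log2 median size was tested for identifiers with 5 or more colonies in at least 3 libraries per group. SEs for edgeR are the log2 change over the square root of F. Alternatives used DESeq2 1.42.0 and exact two-sided permutation on log2(value + 1) or log2 size. DESeq2 ran with a mean dispersion fit and no independent filtering. R 4.3.3, Python 3.11.15, numpy 2.4.6 and pandas 2.3.3 were used. Tests were run on simulated data first. When changed 4-fold, 61.5% of changed identifiers were recovered for colony number (38 identifiers), 9% for reads (101) and 87.5% for size (30). At 16-fold it was 99.5, 67 and 100%. Of unchanged identifiers 0.536, 0.165 and 2% were called in the runs at 4-fold. In the simulation as many identifiers rose as fell, and noise was drawn separately for each. In the data most identifiers moved the same way in colony number and in size, so these rates may not hold there. The members and lists were chosen with earlier results of these data known. All 10 identifiers are named, and the barcodes printed are those with the most reads, in the most libraries, or with at least 1 in 3 of their line's reads in a library with 5 or more of its colonies.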

Additional observations from a re-analysis of the deposited data

Results flagged for a closer look

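For the 10 lines 60 groups of values were examined (colony number, share of reads and median size in each group). A library stood far from the rest of its group in 5 of them by Dixon's rule, the gap to the nearest value over the range. For normally distributed values this rule marks about 1 in 20 groups, here 3. The values were not on a log scale or checked for that distribution, so 5 against 3 is no test. The groups share libraries and are not independent. In ATCG, vehicle sample 2 held 4.15% of reads, against 0.00218 to 0.246% in the other vehicle libraries, and 6-OHDA sample 1 held 91 colonies, against 39 to 53. In GTGA, vehicle sample 1 had a median colony of 37.4 RPM, against 6.53 to 13.7. In GTAC, 6-OHDA sample 4 had a median of 28.9 RPM, against 9.01 to 11.2, over 101 colonies. In ACTG, vehicle sample 5 held 0.0266% of reads, against 0.315 to 0.425%.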

How the results depend on the processing

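Depth limits the smallest colonies, 10 reads of 6436469 or 1.55 RPM, and the 11 libraries limit the tests. Leaving out each library in turn gave 0 to 8 identifiers called for colony number (0 to 4 of the 10 lines), 0 to 23 for reads (0 to 1 of the 10) and 0 to 18 for median size (0 to 6 of the 10). The top of each range came without vehicle sample 4. For reads there were also 2 identifiers without 6-OHDA sample 1 and 13 without 6-OHDA sample 2. For colony number a minimum of 3 reads called 1 identifier and none of the 10, and TMM scaling turned GGTT to -0.24, ACTG to -0.33 and CGTA to -0.35 on the log2 scale. For reads, 9 identifiers were called without TMM scaling and 25 by DESeq2, 3 of them among the 10. ACGA turned to 0.01 without TMM scaling (0.0115) and 0.06 (0.0590) by exact permutation, and by that test ATCG turned to 0.59 and ACTG to 0.22. ATCG turned to 0.42 without the largest ATCG and GTGA barcodes, an alternative chosen after seeing the data, and ran from -3.12 to 0.47 over the left-out libraries. CATG, at 0.01, gave -0.08 (-0.0781) by DESeq2 and -0.26 to 0.32 over the left-out libraries. With only the reads of colonies, also chosen afterwards, 0 were called.

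For median size, the identifiers called fell from 11 to 0 without thinning, with the mean, relative to the library's median colony and by exact permutation, and to 3 (0 of the 10) with a minimum of 30 reads. They rose to 13 with a minimum of 3 reads and to 16 of 21 with at least 20 colonies. Relative to the library's median the log2 values turned to 0.71 for TTCC, 0.06 for GGTT (0.0578) and CATG (0.0586), 0.24 for GTGA, 0.33 for ATCG, 0.07 for GTAC (0.0744) and 0.91 for CGAT. Recurrence over the 10 lines was 28.1% with a minimum of 30 reads. The groups share the sample numbers 1 to 5, and no label says that the numbers pair the samples. With each library's mean deviation removed, deviations of same-numbered samples correlated at -0.52, 0.21, -0.11, -0.44 and 0.02. A shift shared by whole libraries is lost in that step, so the correlations cannot decide whether the numbers pair the samples. With the replicate number as a block, 0 identifiers were called for colony number, reads or size, and CATG turned to -0.04 (-0.0406) in reads. The causes of these shifts were not tested.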
